A study of Mus musculus with 123 samples.

Results

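Malat1 and Neat1 are a pair of neighbouring long noncoding RNAs that stay in the nucleus, and they were followed here as 2 of the 23337 genes in the count table, each taken by its own row in every cell. The cells were single αMHC+ cells of αMHC-GFP mouse hearts, 42 of them labelled E9.5, 29 labelled E12.5 and 52 labelled P1. All groups share the αMHC-GFP strain, in which the Myh6 (αMHC) promoter drives GFP, so cells were sorted by a promoter that marks cardiomyocytes (CMs). The hearts were digested with collagenase at E9.5 and E12.5 and with Liberase at P1, so digestion and age cannot be told apart. The labels name no animal, litter or chip, so each time point is 1 sample of cells, no test across cells was made, and ranges over cells stand in for an error. Both genes were chosen by their measured CPM across these time points and its relation to the number of genes per cell, so their levels are a description.

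Malat1 is one of the most abundant nuclear RNAs of mammalian cells and gathers in nuclear speckles, bodies that store splicing factors. It ends in an A-rich tract that folds into a triple helix and protects the RNA, and a small tRNA-like RNA is cut off behind that tract. Neat1 is made in a short form with a poly(A) tail and a long form without one, and the long form is the scaffold of paraspeckles, nuclear bodies that hold RNA-binding proteins such as Nono and Sfpq. The SMART-Seq kit used on the C1 chips starts its cDNA from runs of A. Whether A-rich stretches of either gene shaped these counts was not tested.

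In the GRCm38 annotation of GENCODE M21, Malat1 is a long intergenic noncoding gene on the minus strand at chr19:5795690-5802672, and its main transcript is a single exon of 6983 bases. Neat1 lies upstream on the same strand at chr19:5824708-5845478, where its long transcript is a single exon of 20771 bases, and 22035 bases separate both genes. The lengths behind the deposited TPM values could be worked out from the counts, and they were 6982 bases for Malat1 but only 3177 bases for Neat1. The counted length of Neat1 is near that of an annotated short transcript, Neat1-202, of 3004 bases. The annotation used for counting is not given in the sources used here. Laid from the annotated start, the counted length is 15.3% of the long form, and reads in this stretch can come from either form. An unnamed gene model, Gm37376, overlaps Malat1 on the plus strand and is not a row of the count table. Whether counting used strand is not given in the sources used here.

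**Figure D1:**
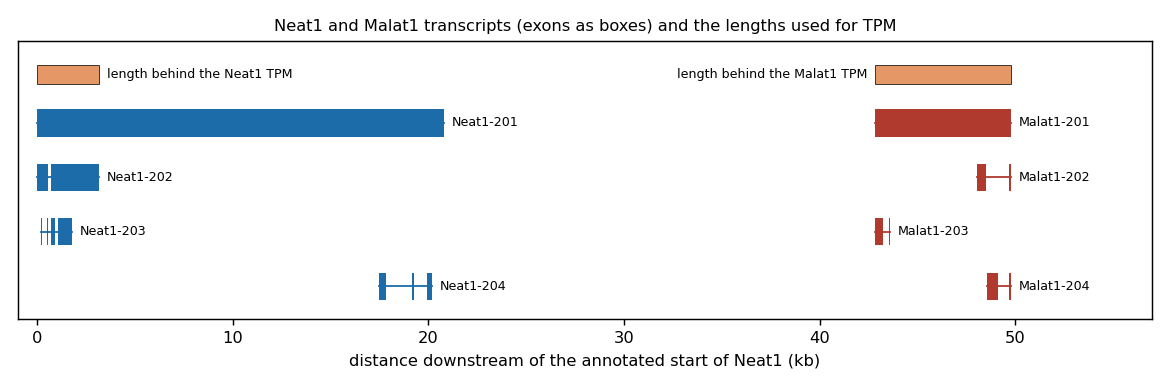
Annotated transcripts of Neat1 (blue) and Malat1 (red), with exons as boxes, drawn by distance in kb downstream of the annotated start of Neat1. The orange bars show the lengths behind the TPM values, 3177 bases for Neat1 and 6982 bases for Malat1, each drawn from the annotated start of its gene.

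Stretches of 30 bases show the longest A run of Malat1, which lies before its annotated end, and the ends of the counted stretches. They were read from the GRCm38 genome on the minus strand and written 5′ to 3′, with the run of A or the poly(A) signal AATAAA in capitals. They lie at chr19:5795979-5796008 (the longest A run of Malat1, in its exon), chr19:5795690-5795719 (the annotated end of Malat1) and chr19:5842302-5842331 (the end of the counted Neat1 length, inside the exon of the long form).
A run in Malat1: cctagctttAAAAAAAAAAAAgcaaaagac
End of Malat1: ttttatgaAATAAAaactaaatatctctca
End of the counted Neat1: agcaaAATAAAggtttgagattgaagcttc
The A run of Malat1 is 12 bases long and starts at base 6674 of the annotated transcript, with 298 bases behind it. Whether it is part of the A-rich tract named above was not tested. The longest A run in the long form of Neat1 has 7 bases and starts at base 9539, beyond the counted length. The AATAAA of Neat1 starts at base 3153 of the transcript and is followed by 19 bases to the end of the counted length.

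The total count of a cell lay between 268301 and 6351742 for E9.5, between 148258 and 7711355 for E12.5 and between 4903 and 327360 for P1. The titles of the cells fall into sets by their prefix, which are 14 cells of set C and 28 of set N530 at E9.5, 20 of set C, 8 of set N523 and 1 of set E12-5b at E12.5, and 52 of set C at P1. The cells of sets N530 and N523 had at least 1437114 counts each and every set C cell had at most 738496, so set and depth cannot be told apart within a time point. The CM genes Myh6, Tnnt2, Actc1 and Ttn were all found in 39 of 42 E9.5 cells and in every one of the 29 E12.5 and 52 P1 cells. Of 14 CM markers, the summed level was under 10000 CPM in 4 E9.5 cells (3 of set C, 1 of set N530) and in 1 P1 cell, and that P1 cell held 540 CPM of them beside up to 7998 CPM of 8 endothelial markers. Log2 ratios of Malat1 without these 5 cells are given beside the comparisons of pooled cells that hold any of them.

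Malat1 was found in every one of the 123 cells, and its level was highest at P1. CPM stands for counts per 1000000 counts of the cell. At E9.5 Malat1 was at 1657 CPM in the lowest cell, 6718 CPM in the median cell and 23824 CPM in the highest. At E12.5 the lowest, median and highest cells held 372, 8608 and 37159 CPM. At P1 they held 10931, 33047 and 119308 CPM. All 52 P1 cells lay above the median of the E9.5 cells and above the median of the E12.5 cells. Of the P1 cells, 38 lay above every E9.5 cell and 18 above every E12.5 cell, so the groups overlapped. Less RNA of other genes and more Malat1 per cell cannot be told apart, since no spike-in controls are in the table.

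Malat1 took from 1.09% to 11.9% of the counts of a P1 cell, with a median of 3.30%. It was the gene with the most counts in 23 of 52 P1 cells, it was among the first 3 in 45 and among the first 10 in all 52. At E12.5 it led in 7 of 29 cells, all of set C, and at E9.5 in 0 of 42. The lowest rank, 693, was that of an E12.5 cell of set N523.

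**Figure D2:**
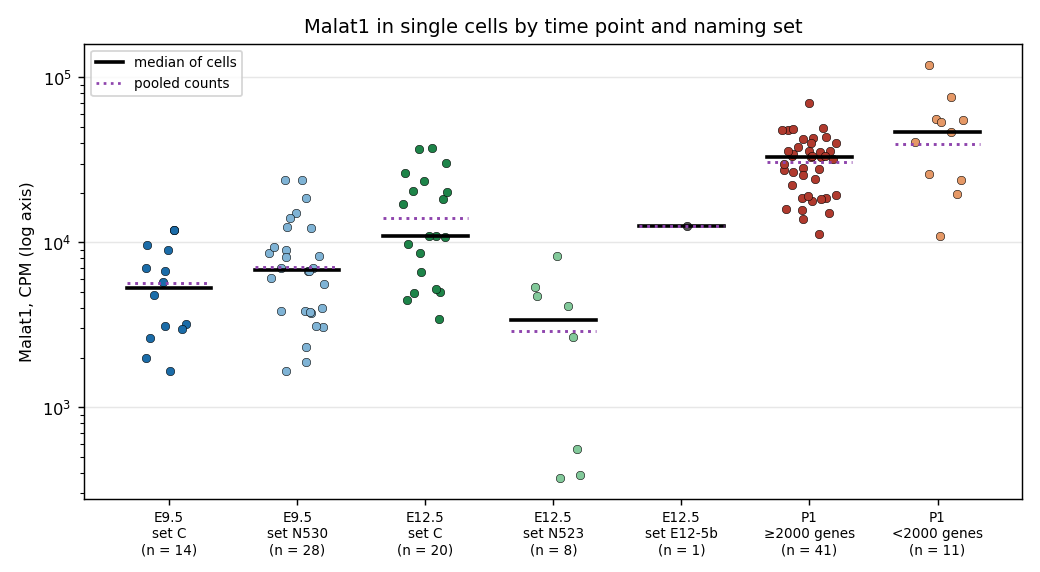
Malat1 in CPM (log axis) in each of the 123 cells, by time point and naming set, with P1 split at 2000 genes found. Black lines are medians of cells and dotted lines pooled counts; P1 cells lie between 10931 and 119308 CPM and set N523 at E12.5 between 372 and 8240 CPM.

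The counts of all cells of a group were also pooled, which weights each cell by its depth. E9.5 cells pooled held 7020 CPM of Malat1 (exact 95% Poisson interval from 7004 to 7037). Pooled E12.5 cells held 4804 CPM (4785 to 4823), and pooled P1 cells 31311 CPM (31184 to 31437). Such intervals cover counting error only, as reads were not tagged by molecule. Between P1 and E9.5 the log2 ratio was 2.16, a 4.46-fold difference, against 2.14 to 2.48 over the naming sets of E9.5 (SD 0.24). Between P1 and E12.5 it was 2.70, a 6.52-fold difference, against 1.16 to 3.44 over the naming sets (SD 1.61). For E9.5 the difference was larger than the spread between its naming sets. For E12.5 this holds for the pooled counts but not for each summary, since the mean of cell CPM gave 1.53, the deposited TPM 1.38 and set C only 1.16, each below the SD. Both comparisons share the P1 cells, all of set C, so these spreads hold no difference between naming sets of P1. Sets N523 and C of E12.5 differed by a log2 ratio of −2.28, larger in size than the 2.16 between P1 and E9.5. Without the 5 cells low in CM markers the log2 ratios were 2.16 and 2.72, with 2.15 to 2.39 and 1.17 to 3.45 over the naming sets.

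A 2-fold higher level is not rare in these data. It was met by 21.3% of the 9024 genes at 10 CPM or more in P1 or E9.5, and by 32.7% of the 8155 such genes in P1 or E12.5. A higher ratio than that of Malat1 was seen for 10.4% of genes against E9.5 and for 13.3% against E12.5. The median log2 ratio of all these genes was −0.57 against E9.5 and 0.06 against E12.5. Scaling by TMM factors, which sets the bulk of genes equal, moved all ratios by 0.25 and −0.27, and gave 2.40 and 2.44 for Malat1.

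From E9.5 to E12.5 no change of Malat1 larger than the spread was seen, and its direction depended on the cells and the summary taken. The log2 ratio of pooled counts was −0.55, beside 42.6% of 8647 genes at least 2-fold lower, against −1.30 to 1.32 over 4 combinations of naming sets (SD 1.33). Without the cells low in CM markers it was −0.56. Between set C cells of both time points it was 1.32, or 1.22 without the cells low in CM markers, and the mean over cells gave 0.68. At E12.5, set C cells ran from 3418 to 37159 CPM with a median of 10862 CPM. The 8 cells of set N523 ran from 372 to 8240 CPM with a median of 3398 CPM, all of them below the median of set C, and 4 below every set C cell. Pooled Malat1 was 14059 CPM in set C and 2890 CPM in set N523, a log2 ratio of −2.28. Beside it, 43.1% of 8156 genes were at least 2-fold lower in set N523 and 22.7% higher. With TMM factors the log2 ratio of Malat1 was −1.65, beside 34.7% of genes lower and 33% higher. The lowest cells of set N523 held 561, 387 and 372 CPM of Malat1. They had 6728675, 5136532 and 7711355 counts and 2565, 2713 and 3401 genes, fewer genes than the other 5 cells of the set, which had 4796 or more.

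At E9.5 both sets were closer to each other. Set C ran from 1658 to 11916 CPM with a median of 5272 CPM, and set N530 from 1657 to 23824 CPM with a median of 6832 CPM. The log2 ratio of pooled counts was 0.34, or 0.24 without the cells low in CM markers, where 28.3% of 9088 genes were at least 2-fold higher and 24.8% lower, and 20 of 28 cells of set N530 lay within the range of set C. Ordered by their median, the sets ran from N523 through C and N530 of E9.5 and set C of E12.5 to P1, and each neighbouring pair in this order overlapped.

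Over all cells of a time point, the spread of Malat1 CPM relative to its mean was smallest at P1. The coefficient of variation over cells was 0.536 at P1, against 0.724 for E9.5 cells and 0.874 for E12.5 cells. It was 0.608, 0.727, 0.693 and 0.858 in sets C and N530 of E9.5 and sets C and N523 of E12.5. Among P1 cells it was 0.393 in the 41 cells with 2000 or more genes and 0.636 in the other 11, above that of set C of E9.5.

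P1 cells in which few genes were found held more Malat1 per count, by a small margin. A gene is found at 1 count or more, and 11 of 52 P1 cells had fewer than 2000 genes, the limit used in the study's methods to drop cells. The heat map of the paper still lists 52 P1 cells, so whether the study dropped these 11 is not known. Malat1 in these 11 cells was at 10931 CPM in the lowest, 46390 CPM in the median and 119308 CPM in the highest. In the other 41 P1 cells it was at 11214, 32847 and 69707 CPM. Of the 11 cells, 7 lay above the median of the others, 2 above all of them and 1 below all of them, and 8 lay within their range. Pooled Malat1 was 39643 CPM (39183 to 40107) against 30437 CPM (30306 to 30568), a log2 ratio of 0.38 or 1.30-fold, and 0.36 without the cell low in CM markers.

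The size of this ratio hung on the summary and on single cells. Means over cells gave a log2 ratio of 0.62 and medians 0.50, while leaving out the cell with the most Malat1 counts in each group gave 0.21. The level of 2-fold was not reached in any of the settings tried. Between these groups, 19.5% of 7394 genes were at least 2-fold higher and 48.5% at least 2-fold lower in the 11 cells. A higher ratio than that of Malat1 was seen for 28.7% of genes, beside a median over all genes of −0.87.

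Malat1 counts as such were lower in the 11 cells. Their median was 2976 counts against 4482 in the others, a ratio of 0.664. The median count of all other genes was 64739 against 143205, a ratio of 0.452. Of the 11 cells, 6 had totals under 69522, the lowest of the other 41. The smallest cells held 4903 and 5249 counts, of which 370 and 126 were Malat1, or 75464 and 24005 CPM. The highest Malat1 level of the series belonged to a cell of 1520 genes and 39947 counts, with 4766 of them from Malat1.

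The 3 cells on each side of the limit of 2000 genes overlapped in Malat1, while the medians of wider bands were higher below the limit than above it. Just below it, cells with 1788, 1927 and 1985 genes held 19636, 46390 and 10931 CPM. Just above it, cells with 2124, 2359 and 2436 genes held 29992, 33143 and 39764 CPM. By bands of genes, the median was 53781 CPM in 3 cells under 1500 genes and 43505 CPM in 8 cells from 1500 up to the limit. It was 31567, 28330 and 34615 CPM in the bands of 8, 15 and 10 cells between 2000 and 3500 genes, split at 2500 and 3000, and 28035 CPM in 8 cells with 3500 or more.

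**Figure D3:**
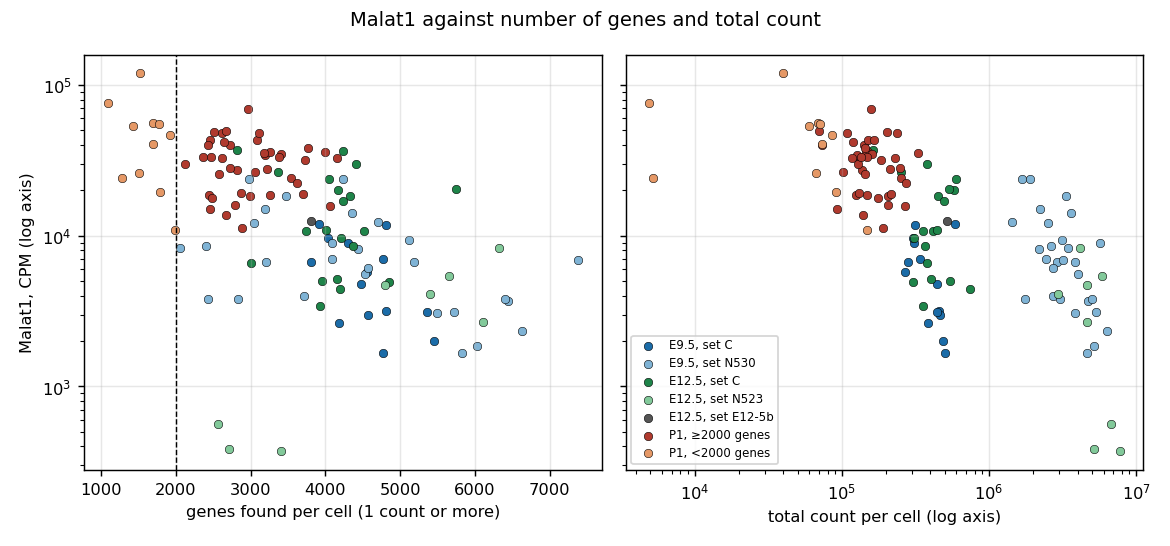
Malat1 in CPM (log axis) against the number of genes found per cell (left, dashed line at 2000 genes) and against the total count per cell (right, log axis), 1 point per cell, coloured by time point and naming set. All P1 cells lie above 10000 CPM whatever their number of genes, and 3 set N523 cells with 2565 to 3401 genes are lowest.

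Over all 52 P1 cells, Spearman's rank correlation of Malat1 CPM was −0.24 with the number of genes and −0.36 with the total count. Over the 41 cells with 2000 or more genes it was −0.065 and −0.19. The number of genes and the total were themselves linked at P1, with a rank correlation of 0.61, and the CPM has the total as its divisor. In the embryo, the rank correlation with the number of genes was −0.44 over 14 cells of set C at E9.5, −0.53 over 28 of set N530, 0.03 over 20 of set C at E12.5 and 0.74 over 8 of set N523. The sign thus differed between sets. The value of 0.74 belongs to the set that holds the 3 cells of few genes and little Malat1. The rank correlation with the total count was negative in each of these sets, at −0.42, −0.60, −0.16 and −0.57.

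Other RNAs that went with Malat1 within sets were sought over 1412 genes found in at least 50% of the cells of each of 5 naming sets. The highest mean rank correlation was that of Ryr2, the calcium release channel of the sarcoplasmic reticulum and itself one of the CM markers, at 0.53. It was 0.68 in set C at E12.5, 0.57 at P1 and 0.95 over the 8 cells of set N523, but only 0.22 and 0.26 in sets C and N530 of E9.5. Ptprs, a receptor tyrosine phosphatase, followed at 0.51, Arglu1, a splicing and transcription cofactor, at 0.50, Abcc5, a transporter, at 0.45, and Qk, an RNA-binding splicing regulator, at 0.42. These means are raised by the 8 cells of set N523, where the 4 genes lay between 0.79 and 0.92. At P1, Ptprs was at 0.29, Arglu1 at 0.16, Abcc5 at 0.042 and Qk at 0.44, and Qk was at 0.079 in set N530 and 0.099 in set C of E12.5. The lowest mean rank correlation, looked up after the values were seen, was −0.53 for Eef1a1, a translation elongation factor, followed by the ribosomal protein genes Rpl6 (−0.51), Rps9 (−0.50) and Rplp0 (−0.48).

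Malat1 was lower in cells with more ribosomal protein mRNA in 4 of 5 naming sets. The summed counts of 81 ribosomal protein genes made up a median of 2.36% of the counts of other genes in P1 cells, beside 2.15% for E9.5 and 3.30% for E12.5. The rank correlation between this share and Malat1 CPM was −0.43 at P1, −0.60 for set C of E12.5, and −0.53 and −0.52 for sets C and N530 of E9.5, while it was −0.02 over the 8 cells of set N523. At P1 it was −0.66 in the 11 cells under 2000 genes and −0.35 in the other 41. These genes were chosen after the values were seen, cells of a set share only the prefix of their titles, and the part of depth in these values was not tested. With the share of CM markers, the rank correlation was between 0.11 and 0.30 in these groups. With the CPM of these markers over all counts, Malat1 included, it was −0.091 in the 11 cells.

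Neat1 was rare in the embryo and found in a minority of P1 cells. It had 1 or more counts in 2 of 42 cells at E9.5, both of set N530, with 30 and 92 counts or 9.55 and 23.9 CPM. At E12.5 it was found in 2 of 29 cells, in 1 of set C with 3 counts (5.59 CPM) and in 1 of set N523 with 10 counts (2.42 CPM). At P1 it was found in 20 of 52 cells, 38.5% (exact binomial interval 25.3% to 52.98%, which covers the counting of cells only and not the spread between animals), and the median cell of each time point held 0. The 14 set C cells of E9.5 held 0 counts of 5591164, which allows up to 0.537 CPM at a limit of 3 counts.

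**Figure D4:**
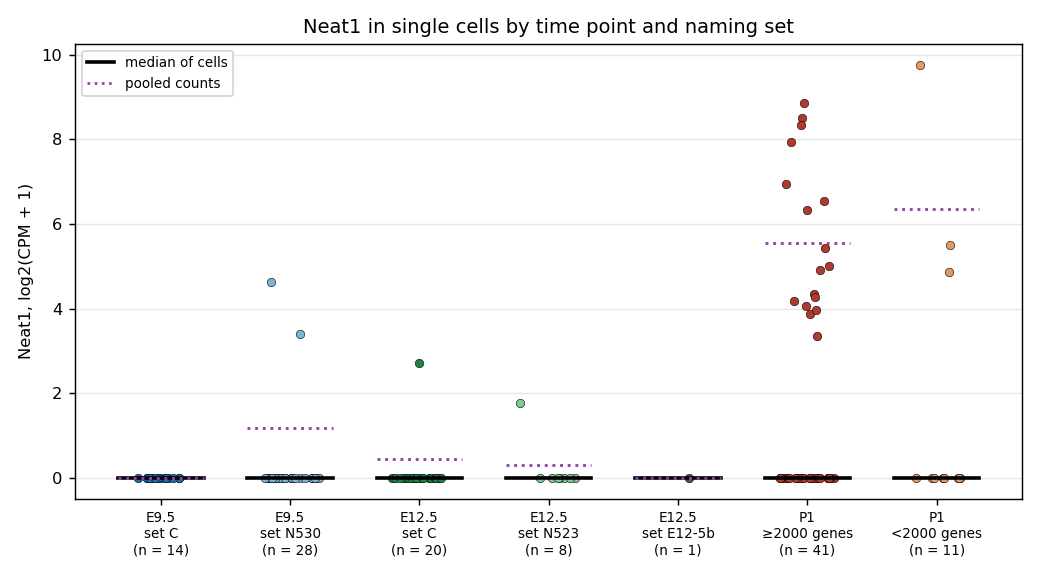
Neat1 as log2(CPM + 1) in each cell, by time point and naming set, with P1 split at 2000 genes; cells at 0 lie on the bottom line. Black lines are medians, all at 0, and dotted lines pooled counts; 20 of 52 P1, 2 of 29 E12.5 and 2 of 42 E9.5 cells lie above 0.

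Among the 20 P1 cells with Neat1, the level ran from 9.22 CPM through a median of 36.6 CPM to 869 CPM. The counts were uneven, as 8 cells with 12 to 77 counts held 330 of the 372 counts (88.7%) and the other 12 cells had 2 to 6 counts each. Of the P1 cells, 13 lay above every E9.5 cell and 20 above every E12.5 cell. These 20 are all the P1 cells with Neat1, so the latter number only repeats in how many cells it was found. In cells this shallow, few counts already pass the 5.59 CPM of the highest E12.5 cell. P1 cells were found positive although they were the shallowest. In the expected value of thinning each cell to 50000 counts, Neat1 was found in 33.9% of 49 P1 cells (3 cells were too shallow), 2.58% of E9.5 cells and 1.27% of E12.5 cells. At 4000 counts, which kept all cells, it was found in 11.6%, 0.307% and 0.110%.

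Pooled Neat1 was 49.4 CPM at P1 (44.5 to 54.7), 1.21 CPM at E9.5 (1.00 to 1.44) and 0.257 CPM at E12.5 (0.137 to 0.440). Between P1 and E9.5 the log2 ratio was 5.35, a 40.9-fold difference, with 5.27 against set N530 and at least 92.0-fold against set C with its 0 counts set to the limit of 3 (a log2 ratio of 6.52, where the exact counting interval starts at 6.22). Between P1 and E12.5 it was 7.58 (counting interval 6.79 to 8.51), or 192-fold, with 7.08 (5.52 to 9.36) against the 3 counts of set C and 7.69 against set N523. A higher ratio was seen for 3.01% of genes against E9.5 and for 2.18% against E12.5. The ratio to E12.5 was larger than the spread between the naming sets of E12.5 (SD 0.43), a spread taken from sets with 3 and 10 counts. For E9.5 no spread could be taken, as 1 of its sets held 0 counts. The ratios to E9.5 and E12.5 rest on 122 and 13 counts in the embryo. Without the cell with the most Neat1 counts in each group they were 7.03 (6.48 to 7.62) and 9.28 (7.72 to 11.57). Between E12.5 and E9.5 the log2 ratio was −2.23 on the same few cells.

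Within P1, Neat1 gave no stable difference between cells under 2000 genes and the others. It was found in 3 of 11 cells, 27.3% (6.02% to 61.0%), and in 17 of 41, 41.5% (26.3% to 57.9%). The 3 cells held 2, 4 and 52 counts, so that 1 cell of 1435 genes held 89.7% of the counts of its group. The pooled levels were 81.1 and 46.04 CPM, a log2 ratio of 0.82 that turned to −1.97 (−3.43 to −0.83) without the cell with the most Neat1 in each group. After thinning to 50000 counts, the shares were 35.9% of 8 cells and 33.5% of 41. The rank correlation of Neat1 with the number of genes over P1 cells was 0.060, and with the total count 0.13, values from which no relation was read in counts this sparse.

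Neat1 and Malat1 were not seen to go together from cell to cell. Their rank correlation was 0.10 over the 52 P1 cells. P1 cells with Neat1 held a median of 33209 CPM of Malat1 and those without it 32995 CPM. Per length, on the deposited TPM scale, Neat1 was at 0.0840% to 3.55% of Malat1 in the 20 P1 cells, with a median of 0.256%. The median cell held 7446 TPM of Malat1 at P1, beside 2079 TPM for E9.5 and 2372 TPM for E12.5. Among the genes most like Neat1 in mean rank correlation over the 4 sets that held it were Ubn2, Kbtbd10, Sec13 and Ube3a, at 0.33 to 0.30, which in 3 sets rests on only 1 or 2 cells with Neat1.

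Genes for the proteins of the bodies that hold these RNAs were mostly not higher at P1. Of 16 paraspeckle protein genes, 14 could be compared between P1 and E9.5, and 0 were 2-fold higher and 9 were 2-fold lower at P1, beside 21.3% and 41.3% of all genes. Their median log2 ratio was −1.33, beside −0.57 for all genes. Nono and Sfpq, the core paraspeckle proteins that bind Neat1, had log2 ratios of −1.35 and −0.33, and Pspc1, their partner, had −2.94. Sfpq stood at 290 CPM at P1, against 905 CPM in set C and 332 CPM in set N530 of E9.5. Nono stood at 167 CPM at P1, against 391 CPM in set C and 427 CPM in set N530. Of 22 nuclear speckle protein genes, 0 were 2-fold higher and 10 were 2-fold lower, with a median of −0.97. Son, the core protein of speckles, was at −0.37, Srrm2, its partner, at −2.41, and the splicing factor Srsf2 at 0.82. Son stood at 407 CPM at P1, above the 242 CPM of set C and below the 542 CPM of set N530 of E9.5, so its direction depended on the set. Srrm2 stood at 47.8 CPM at P1, against 104 CPM in set C and 262 CPM in set N530. Srsf2 stood at 826 CPM at P1, against 638 CPM in set C and 459 CPM in set N530. With TMM factors, 1 speckle gene was 2-fold higher and 9 were lower, beside 24.7% and 36.6% of all genes. The share of speckle genes that were lower was near that of all genes under either scaling. Against set C of E9.5 alone, 13 of 14 paraspeckle genes and 6 of 21 speckle genes were 2-fold lower, beside 39.2% of all genes.

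Against pooled E12.5 cells the lists stood closer to the bulk. Of 11 paraspeckle genes tested, 0 were 2-fold higher and 2 lower at P1 (median −0.45), and of 21 speckle genes, 3 were higher and 4 lower (median −0.04), beside 32.7% and 30% of all genes and a median of 0.06. This rests on set N523, as against set C of E12.5 alone 8 of 11 paraspeckle genes and 10 of 22 speckle genes were lower and 0 higher, beside 33.5% and 21.1% of all genes. In P1 cells under 2000 genes, 1 of 10 paraspeckle genes was 2-fold higher and 1 lower, and 2 of 22 speckle genes were higher and 5 lower, with medians of −0.45 in both lists. Of all genes, 19.5% were higher and 48.5% lower, with a median of −0.87.

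Other nuclear long noncoding RNAs were mostly lower at P1 than at E9.5. Of 13 listed, 7 could be compared between P1 and E9.5, and 0 were 2-fold higher and 6 lower at P1, with a median log2 ratio of −2.32, beside 21.3% and 41.3% of all genes and their median of −0.57. Meg3, an imprinted RNA of the Dlk1 locus, stood at 345 CPM (E9.5) and 1.99 CPM (P1), and Rian, of the same cluster, at 36.8 CPM and 0 counts. Kcnq1ot1, which silences imprinted neighbours, stood at 381 and 136 CPM, and Tug1 at 914 and 526 CPM, with 2377 CPM in set C and 829 CPM in set N530 of E9.5. Against set C of E9.5 alone, 5 of 7 were 2-fold lower and 0 higher, beside 39.2% and 22.7% of all genes. Of these 7, 2 lay above 0, among them Airn, at 18.8 CPM in set C and 28.4 CPM at P1. Against E12.5, 0 of 6 were 2-fold higher and 3 lower, beside 32.7% and 30% of all genes, and Airn lay above 0 at a log2 ratio of 0.81. Airn stood at 14.0 CPM in set N523 and 27.3 CPM in set C of E12.5, near its P1 level. Against set C of E12.5 alone, 0 of 7 were higher and 4 lower, beside 21.1% and 33.5% of all genes. Against set N523 alone, 1 of 6 was higher and 3 lower, beside 38.7% and 29.7% of all genes. Of 8 noncoding host genes of small nucleolar RNAs tested, 0 were 2-fold higher and 5 lower, beside the same 21.3% and 41.3%. Gas5, one of these hosts, stood at 627 CPM (E9.5) and 165 CPM (P1).

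**Figure D5:**
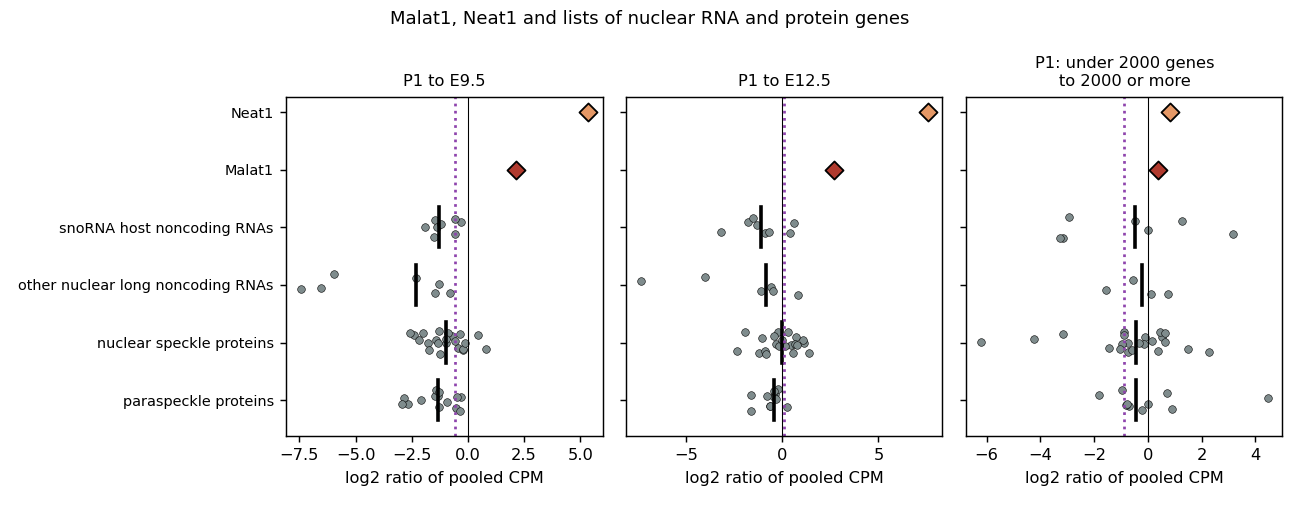
Log2 ratio of pooled CPM of Neat1 and Malat1 (diamonds) and of the tested genes of 4 lists (grey points, black line at the list's median), for P1 to E9.5, P1 to E12.5 and P1 cells under 2000 genes to the other P1 cells. The dotted line is the median of all tested genes; in both time comparisons Malat1 (2.16 and 2.70) and Neat1 (5.35 and 7.58) lie to the right of every list gene shown.

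For context, the genes with the largest ratios between P1 cells under 2000 genes and the other P1 cells were listed in each direction. On the higher side these came from 783 genes at 100 CPM or more in the 11 cells and found in at least 50% of them, a filter that favours genes high there, so the list is a description. Malat1 was not among the first 10, which were Fam103a1 (3.83), Kdm2a, a histone demethylase (3.33), and Erlec1 (2.62), followed by Bzw1, Camk2a, Ipo5, Adamts6, Rab6a, the splicing factor Srsf1 and Myzap. On the lower side, from 1455 genes at 100 CPM or more in the other 41 cells and found in at least 50% of those, Nppa, the atrial natriuretic peptide gene, had the lowest ratio, at 34.97 CPM against 7727 CPM, a log2 ratio of −7.79. It was followed by Ankrd1, a stretch-responsive CM gene (−7.05), Tax1bp3, Clu, Fam136a, Eif2b1, Mpv17, Add3, Klf13 and Ddx46. In the 11 cells the 14 CM markers summed to between 74759 and 130120 CPM. Among these, the atrial light chain genes were lower there, with Myl7 at 311 CPM against 2447 CPM in the other 41 cells and Myl4 at 138 CPM against 453 CPM, and their part in the Malat1 values was not tested. The 8 endothelial, 6 epicardial, 8 erythroid and 9 macrophage markers were all at 0. The 6 smooth muscle markers summed to a median of 572 CPM and up to 3836 CPM there, with 5 of them at 0 in all 11 cells, beside a median of 1110 CPM and up to 5811 CPM in the other 41. The 8 fibroblast markers summed to at most 25.03 CPM, with 7 of them at 0, beside up to 112 CPM in the others. The part of these markers in the differences was not tested.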

How the data were processed

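The authors sorted αMHC-GFP+ cells, made cDNA with the SMART-Seq V4 kit in the Fluidigm C1 system, mapped reads of 75 bases with OLego and deposited raw read counts per gene symbol (featureCounts) and TPM on a linear scale, computed by the authors from these counts. The builds GRCm38 and mm10 stand in the submitters' processing notes. Here CPM, pooled CPM, exact intervals (95%), Spearman's rank correlation and expected values of thinning were computed with Python 3.11.15, pandas 2.3.3 and scipy 1.17.1, and TMM factors with edgeR 4.0.16. The TPM lengths were searched from 6900 to 7100 bases for Malat1, and 6982 made 100% of 14526 gene lengths whole within 0.02 bases (4.36% at the next best). A group at 0 counts was given a limit of 3 counts. Ratios over genes used those at 10 CPM or more on either side. The scripts were tested on simulated data. No doublet call was made.

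The labels give the time points; the prefix of the title gave the naming sets. Each time point is 1 sample, so there was no test. Named genes were the members, listed genes, the 5 genes most like each member and the 10 with the largest ratios between P1 cells under 2000 genes and the others in each direction. One of the genes named by this rule is not reported here. The members and all lists were chosen with earlier results of these data known. Firre, Ftx, Dancr, Zfas1, Epb4.1l4aos, Hbb-bs and Adgre1 were matched by older symbols, and Hbb-bt was not matched. Alternatives were means and medians of cell CPM, TPM, TMM factors, CPM without both members, single cells or naming sets left out, other limits of genes or counts, and leaving out cells titled with a final "no", whose meaning is not given in the sources used here.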

Additional observations from a re-analysis of the deposited data

How the results depend on the processing

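Over 16 values (12 log2 ratios, 4 correlations) and 124 alternatives, 78 stayed within a tolerance, 36 moved beyond it and 10 turned in direction. Some of the 78 had little or no room to move. A gene found at 2 counts kept the same 11 P1 cells under the limit, and no E12.5 cell was low in CM markers. The 4 correlations did not change with both members left out of the total, which hardly alters the ranks. The tolerance was the SD over naming sets for ratios between time points, the counting interval for ratios within them and for Neat1 between P1 and E9.5, and 0.1 for correlations. No paired analysis was possible because the meaning of the numbers at the end of some set C titles, which recur at several time points, is not given in the sources used here, so nothing ties a cell to one of another time point. The alternatives without the 2 smallest cells and without the cells low in CM markers, and the gene lists against single naming sets, were chosen after seeing the data. The depth of P1 cells limits Neat1, and few cells carry its counts. Causes were not tested.

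Malat1, log2 ratios: E12.5 to E9.5 turned from −0.55 to 0.68 (means of cells), 0.43 (TPM) and 1.32 (set C only). P1 to E9.5 was 1.80 with TPM, 2.40 with TMM factors and 2.48 with set C only; P1 to E12.5 stayed between 1.16 and 3.00. P1 cells under 2000 genes to the others gave 0.62 (means), 0.50 (medians), 0.74 (TPM), 0.21 (without the cell with most Malat1 counts in each group), 0.77 and 0.12 (limits of 1500 and 3000 genes) and 0.30 (a gene found at 10 counts, which put 40 cells under the limit). Set N530 to set C gave 0.50 (means), 0.37 (medians), 0.63 (TPM), 0.41 (TMM), 0.45 (without the top cells), 0.25 (without titles ending in "no") and 0.24 (without cells low in CM markers). Set N523 to set C gave −2.23 (means), −1.68 (medians), −2.32 (TPM), −1.65 (TMM), −2.30 (without both members in the total) and −2.53 (without the top cells). With 2000 or more genes only, the rank correlation at P1 was −0.065 with genes and −0.19 with totals.

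Neat1, log2 ratios: E12.5 to E9.5 was −1.53 (means) and −1.46 (TPM). P1 to E9.5 was 6.10 (means), 6.02 (TPM), 7.03 without the top cells and at least 6.52 with set C only. P1 to E12.5 was 9.28 (counting interval 7.72 to 11.57) without the top cells and 7.08 with set C only. P1 cells under 2000 genes to the others turned from 0.82 to −1.97 (without the top cells), −3.81 (without titles ending in "no"; 2 counts, −6.87 to −1.95) and −1.13 (limit of 3000 genes), and moved to 4.12 (limit of 1500 genes) and 0.072 (gene found at 10 counts). Set N523 to set C turned from −0.61 (10 and 3 counts, −2.57 to 1.89) to 0.12 (means), 0.24 (TPM) and 0.026 (TMM). The rank correlation with genes at P1 was −0.0058 with 2000 or more genes only, and the rank correlation with totals was 0.25 without titles ending in "no". Neat1 gave no value for medians of the sets and of the P1 split, for E12.5 to E9.5 with set C only, for means, TPM or without the top cell in set N530 to set C, and without the top cells in set N523 to set C, since 1 or both sides were at 0 or within the limit of 3 counts.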

Other observations

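Immediate early and heat shock genes, which answer to stress, were mostly lower at P1 than in the embryo, and their relation to Malat1 and Neat1 was not tested. Of 21 immediate early and heat shock genes, 17 could be compared between P1 and E9.5, and 1 was 2-fold higher and 14 were 2-fold lower at P1, with a median log2 ratio of −2.26, beside 21.3% and 41.3% of all genes and their median of −0.57. Against E12.5, 1 was higher and 15 of 17 were lower, with a median of −2.68, beside 32.7% and 30% of all genes and their median of 0.06. Pooled E12.5 counts come mostly from set N523, and against set C of E12.5 alone 10 of 14 were lower and 0 higher, with a median of −1.86, beside 33.5% and 21.1% of all genes. Dnajb1, a heat shock gene, stood at 444 CPM in set N523 and 30.5 CPM in set C, and Hspa1a at 103 and 3.04 CPM, against 4.38 CPM for Hspa1a at P1. Fos, an immediate early gene, stood at 462 CPM (E9.5), 264 CPM (E12.5; 108 CPM in set C and 298 CPM in set N523) and 71.1 CPM (P1), and Hsp90aa1, a chaperone, at 836, 833 and 345 CPM. In P1 cells under 2000 genes, 2 of 12 of these genes were 2-fold higher and 9 were 2-fold lower, with a median of −3.03, beside 19.5% and 48.5% of all genes and their median of −0.87.

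Of 10 p53 target genes 5 could be compared between P1 and E9.5, with 0 higher and 3 lower (median −1.55). Of 10 hypoxia response genes, 9 could be compared, with 1 higher and 5 lower (median −1.85). The shares over all genes were 21.3% higher and 41.3% lower, and nothing was read from these small lists. Of the 6 protein-coding genes beside the locus, 4 could be compared, with 1 higher and 1 lower. The higher one was Ltbp3, at 0 counts at E9.5 and 18.98 CPM at P1, where 5 cells held it and 1 of them had 78.3% of the counts (4.16 CPM without that cell), and the lower one Frmd8, upstream of Neat1, at 23.7 CPM and 0 counts. Dpf2 stood at 106 CPM (E9.5) and 53.8 CPM (P1).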
